A study of Sus scrofa with 3 samples.

Results

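The genes of TGF-beta, BMP and activin signalling were examined in 3 libraries, S1, S2 and S3, of SSEA4-positive spermatogonia sorted from pigs aged 90 days. They are the rows whose gene name in the deposited table begins with the name of a TGF-beta family ligand, receptor, SMAD, SMURF, extracellular inhibitor or latent TGF-beta binding protein, and 69 of 18730 rows met this pattern. The 69 genes comprise 26 ligands and their subunits, 7 type I receptors, 5 type II receptors, 3 co-receptors, 8 SMADs, 2 SMURF ubiquitin ligases, 11 extracellular inhibitors and 4 latent TGF-beta binding proteins. The other 3, BMP1, BMP2K and TGFB1I1, match the pattern by name and were placed in none of these roles. SSEA4 is a glycolipid of the cell surface that the study tested as a handle for enriching spermatogonial stem cells, and the labels name no treatment, genotype or breed. Every library came from the same sorted population, so there was no second group to compare with.

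Ligands of this family are secreted dimers that bind a pair of type II and a pair of type I receptors, which are serine/threonine kinases. The activated type I receptor phosphorylates receptor SMADs: SMAD2 and SMAD3 after TGF-beta, activin or nodal, and SMAD1, SMAD5 and SMAD9 after BMPs. These join SMAD4 and act on genes in the nucleus, while SMAD6, SMAD7 and the SMURF ligases restrain the response. In the testis activins and inhibins are best known as Sertoli cell products, and in mice BMP4 and activin A have been linked to the differentiation of spermatogonia.

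Levels are given in FPKM, the number of fragments divided by gene length in kilobases and by the mapped fragments in units of 1000000, so that genes can be compared per length. The labels give this unit but the title of the table reads TPM, a doubt that bears on the 1 FPKM line and on comparisons between libraries and not on ratios within one. The libraries summed to 859642, 855276 and 781871 FPKM in S1, S2 and S3, and the 13 mitochondrially encoded genes took 57.7%, 59.3% and 52.7% of these sums. The table holds no counts, so the depth is unknown and no counting error can be given. Germ cell identity was checked with 5 measured marker genes, among them DDX4 and SYCP3, and each lay above 1 FPKM, from 62.0 to 403 FPKM on average. Markers of other testis cells were also present. Of 10 Sertoli markers 7 lay above 1 FPKM, 70% against 65.6% of all genes tested. Among them the transcription factor WT1 stood at 42.8 ± 2.501 FPKM (SD, n = 3). Of 5 Leydig markers 2 lay above it, or 40%. The steroidogenic enzyme CYP11A1 stood at 8.13 ± 4.89 FPKM and the cholesterol transporter STAR at 0.0768 ± 0.0305 FPKM. The Sertoli and Leydig shares are near or under that of all genes. Of 8 peritubular and fibroblast markers 8 lay above 1 FPKM, or 100%. Of 6 endothelial markers 3 did, or 50%, and of 7 leukocyte markers 1, or 14.3%. The counts alone do not tell which cells were there. The levels below therefore belong to the sorted fraction as a whole, and in such bulk libraries fewer cells of a type and less RNA per cell cannot be told apart.

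SMADs and SMURFs had a higher median level than receptors, and ligands, extracellular inhibitors and latent TGF-beta binding proteins had lower ones. Each gene was compared with a level of 1 FPKM, a customary line for a clearly measured transcript, by limma on log2(FPKM + 1) with Benjamini-Hochberg adjustment over 17949 genes. Of the 69 genes 39 lay above 1 FPKM, 22 lay below, 7 were not told apart from it, and INHBE was listed at 0 in all libraries. The share above was 56.5%, against 65.6% of all genes tested, and the share below was 31.9%, against 28.5%. By role, 10 of 10 SMADs and SMURFs and 11 of 15 receptors and co-receptors lay above 1 FPKM, but 9 of 26 ligands and 5 of 11 extracellular inhibitors did. When values were rescaled after taking out mitochondrial and ribosomal protein genes, 15 ligands and 8 inhibitors lay above. Then 9 of the 69 genes lay below, where 22 had, and 2924 of all genes, where 5111 had. A mean of at least 1 was reached by 57 of the 69 genes and 14348 of all genes left, against 43 and 12340 as deposited. This rescaling raised the values left, as INHBA in S1 from 6.84 to 20.7, while the line stayed at 1. Here and below, genes a little under 1 FPKM thus cross it by the scaling alone. The median of log2(FPKM + 1) was 4.44 for SMADs and SMURFs, 2.78 for receptors and co-receptors, 0.94 for extracellular inhibitors, 0.93 for ligands and 0.84 for latent TGF-beta binding proteins, and it was 2.30 over all genes tested. A few genes held much of the signal: SMAD4, SMURF2, SMAD2, SMAD6, SMAD9 and SMAD1 together took 49.4% of the summed mean FPKM of the 69.

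**Figure D1:**
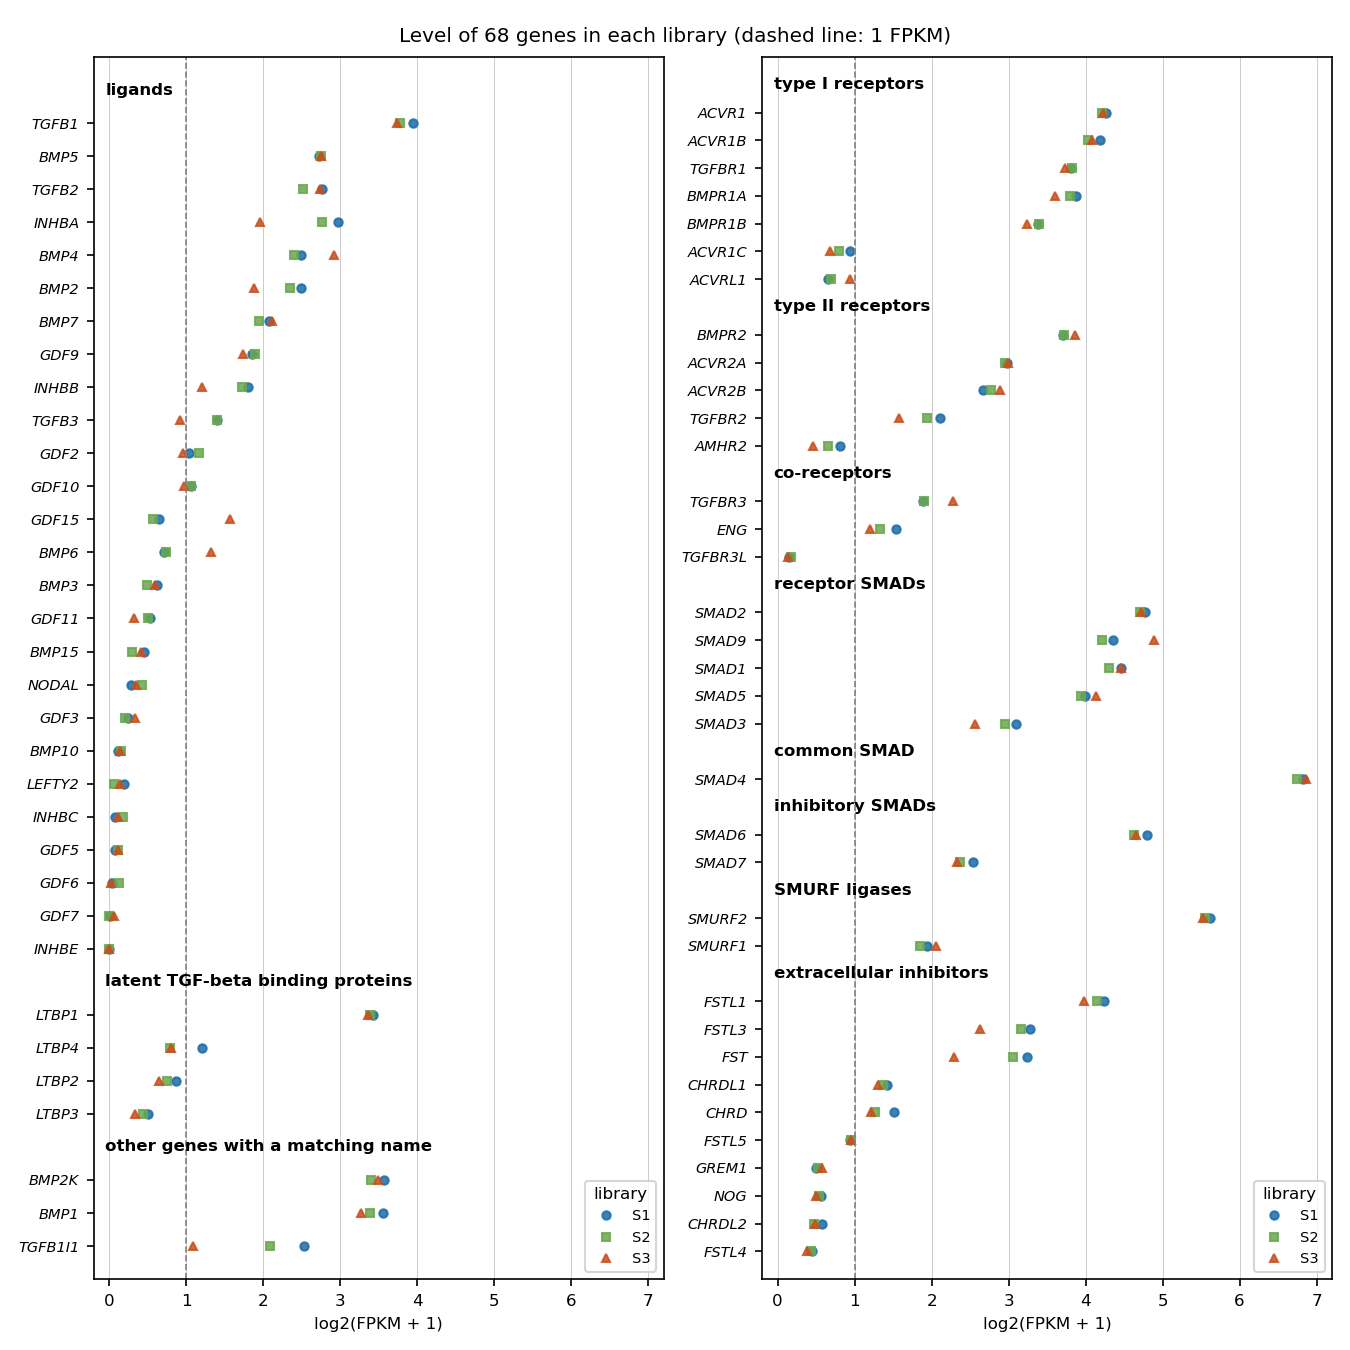
Level of 68 of the 69 genes in the 3 libraries, as log2(FPKM + 1), grouped by role and ordered by mean within a role; each symbol is 1 library and the dashed line marks 1 FPKM. SMAD4 stands at the far right at a mean of 6.81, whereas the lower part of the ligand column lies left of the line.

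**Figure D2:**
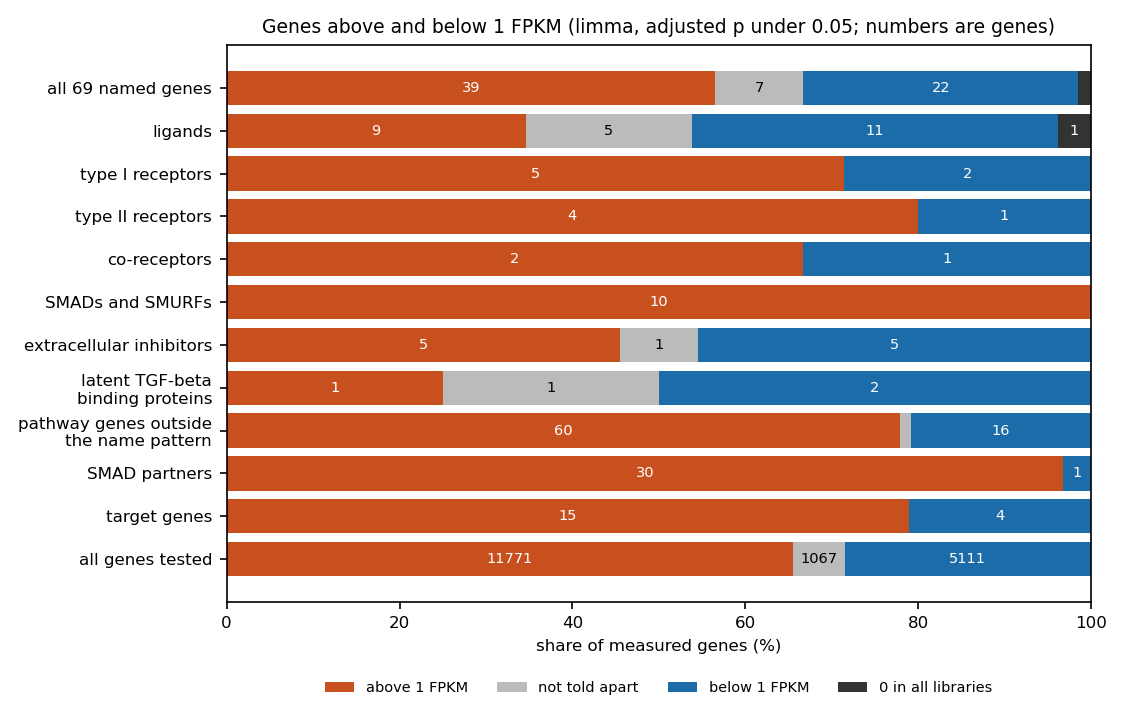
Share of measured genes placed above, below or not told apart from 1 FPKM by limma with an adjusted p under 0.05, by role, for pathway genes outside the name pattern and for all genes tested; numbers in the bars are genes. The bar of SMADs and SMURFs is filled by 10 genes above the level, and that of the ligands holds 9 above and 11 below.

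Among the ligands TGFB1 was the highest. Its level was 14.4, 12.7 and 12.4 FPKM in S1, S2 and S3 (limma, log2 difference from the level 2.82, SE 0.07, adjusted p = 3.5e-07). TGFB2, which signals through the same receptors, stood at 5.81, 4.70 and 5.65 FPKM, and TGFB3 at 1.65, 1.64 and 0.885 FPKM. TGFB1 thus led its 2 paralogs in each library, with TGFB2 over TGFB1 at -1.27 ± 0.15 and TGFB3 over TGFB2 at -1.92 ± 0.56 on the log2 scale (SD, n = 3). TGFB3 was not told apart from 1 FPKM (limma, adjusted p = 0.0932) but lay above it without S3, at a log2 difference of 0.40, the library in which it was lowest.

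BMP5 had the highest mean of the BMP ligands, though BMP4 was above it in S3 and their means were closer than the SD of BMP4, and it had the smallest coefficient of variation of the ligands. Its level was 5.61, 5.72 and 5.72 FPKM in S1, S2 and S3, a coefficient of variation of 1.15%. BMP4 averaged 5.15 ± 1.24 FPKM (SD, n = 3) and stood at 4.63, 4.26 and 6.56 FPKM, and BMP2, the closest relative of BMP4, at 4.64, 4.10 and 2.67 FPKM. These ligands were level with each other in S1 and S2 and parted in S3, so that BMP4 over BMP2 was -0.0036, 0.054 and 1.27 on the log2 scale in S1, S2 and S3 (exact sign-flip permutation test, two-sided, p = 0.5). BMP7 averaged 3.13 ± 0.25 FPKM (SD, n = 3). GDF9, best known as an oocyte factor, averaged 2.56 ± 0.194 FPKM and lay above the level, whereas its oocyte partner BMP15 averaged 0.312 ± 0.0733 FPKM and lay below it.

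Of the activin subunits, INHBA was measured at 6.84, 5.76 and 2.88 FPKM across S1, S2 and S3, and INHBB at 2.49, 2.29 and 1.31 FPKM. Both lay above the level (limma, adjusted p = 0.000638 for INHBA and 0.00707 for INHBB), and both were lowest in S3. INHBB over INHBA was -1.26 ± 0.18 on the log2 scale, lower in 3 of 3 libraries. INHBC was near 0, at 0.0905 FPKM on average, and INHBE, its neighbour on the chromosome, was listed at 0. The subunit INHA, which pairs with either beta subunit to form inhibin and lies outside the name pattern, stood at 8.80, 5.72 and 2.19 FPKM, so it too was lowest in S3.

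GDF15 and BMP6 were the ligands that differed most between libraries among those near the level. GDF15, a divergent and stress-responsive family member, stood at 0.560, 0.481 and 1.97 FPKM across S1, S2 and S3. BMP6 stood at 0.638, 0.667 and 1.51 FPKM. Neither was told apart from 1 FPKM over the 3 libraries (limma, adjusted p = 0.74 and 0.606), and without S3 both lay below it, at log2 differences of -0.40 and -0.28. Without mitochondrial and ribosomal protein genes, a rescaling that took GDF15 in S1 from 0.560 to 1.70, both lay above it, at 0.85 and 0.88. GDF2 and GDF10, neighbouring genes, were close to the level at 1.08 ± 0.154 and 1.05 ± 0.0736 FPKM. Rescaling of each library to a sum of 1000000 put them above it, at log2 differences of 0.20 and 0.18, and TGFB3 at 0.39.

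The remaining ligands were low. BMP3, GDF11, BMP15, NODAL, GDF3, BMP10, LEFTY2, INHBC, GDF5, GDF6 and GDF7 lay below 1 FPKM, with means from 0.0178 to 0.481 FPKM. Of these, BMP3 lay above the level without mitochondrial and ribosomal protein genes, at 0.30, and GDF11, BMP15 and NODAL were then not told apart from it. NODAL, the ligand of early embryonic patterning, here stood at 0.216, 0.340 and 0.274 FPKM, and LEFTY2, its secreted inhibitor, at 0.138, 0.0396 and 0.106 FPKM. GDF7 was listed at 0 in S2 and at 0.00723 and 0.0462 FPKM in S1 and S3. Such zeros may stand for estimates that failed.

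Receptors for each branch were present. Among the type I receptors ACVR1, which serves BMPs, was the highest at 18.2, 17.6 and 17.6 FPKM across S1, S2 and S3, followed by ACVR1B, the main activin type I receptor, at 17.2, 15.3 and 15.9 FPKM. TGFBR1, the TGF-beta type I receptor, stood at 13.01, 13.1 and 12.3 FPKM and BMPR1A at 13.7, 12.9 and 11.14 FPKM. This pair did not differ beyond its spread, at 0.03 ± 0.11 on the log2 scale. BMPR1B followed at 9.41, 9.48 and 8.41 FPKM. These 5 genes lay within a 2-fold band by their means and varied little between libraries, with coefficients of variation from 1.84% for ACVR1 to 10.5% for BMPR1A.

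The other two type I receptors were far lower. ACVR1C, which serves nodal and some activins, stood at 0.918, 0.744 and 0.597 FPKM, and ACVRL1, known from endothelial cells, at 0.577, 0.616 and 0.913 FPKM. Between BMPR1B and ACVR1C the level differed by 3.45 ± 0.20 on the log2 scale, the widest step in the order of type I receptors. ACVR1C and ACVRL1 were placed below 1 FPKM (limma, adjusted p = 0.0275 and 0.017), but ACVR1C was not told apart from it without S2 or without S3, nor ACVRL1 without S1 or without S2, and neither was after rescaling to 1000000. Both lay above it, at log2 differences of 0.71 and 0.64, when mitochondrially encoded genes and those of ribosomal proteins were taken out before rescaling. ACVR1B over ACVR1C was 4.27 ± 0.23 and ACVRL1 over ACVR1 was -4.50 ± 0.33 on the log2 scale, each with the same sign in 3 of 3 libraries.

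Among the type II receptors BMPR2, which binds BMPs, led at 12.1, 12.2 and 13.6 FPKM across S1, S2 and S3. ACVR2A, shared by activins and BMPs, followed at 6.89, 6.74 and 6.93 FPKM and ACVR2B at 5.37, 5.83 and 6.43 FPKM. TGFBR2, the type II receptor of TGF-beta, was lower, at 3.31, 2.83 and 1.98 FPKM, although its partner TGFBR1 was not. TGFBR1 over TGFBR2 was 2.23 ± 0.32 on the log2 scale, a ratio of 4.70. AMHR2, the receptor of anti-Müllerian hormone, lay below the level at 0.566 ± 0.188 FPKM, and its ligand AMH, outside the name pattern, averaged 0.377 ± 0.260 FPKM. Taking out the mitochondrial and ribosomal protein genes put AMHR2 above the level, at 0.43 (log2).

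Of the 3 co-receptors 2 lay above the level. TGFBR3, or betaglycan, which presents TGF-beta and inhibin to their receptors, stood at 2.71, 2.73 and 3.87 FPKM. ENG, the endothelial co-receptor, stood at 1.89, 1.504 and 1.30 FPKM. TGFBR3 over ENG was 0.94 ± 0.52 on the log2 scale and was widest in S3, where TGFBR3 was highest and ENG lowest. TGFBR3L averaged 0.113 ± 0.0164 FPKM. In sums over receptors, chosen after the values were seen, the type I receptors added up to 73.0, 69.8 and 66.9 FPKM and the type II receptors to 28.4, 28.2 and 29.3 FPKM.

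SMAD4, the partner shared by both branches, was the highest of the 69 genes. Its level was 112, 106 and 116 FPKM in S1, S2 and S3 (limma, adjusted p = 3.96e-08). It exceeded the sum of the 5 receptor SMADs in each library, at 1.25, 1.28 and 1.20 times that sum. Among the receptor SMADs, SMAD2 led at 26.3, 25.1 and 25.3 FPKM, while SMAD3, which answers to the same receptors, stood at 7.54, 6.75 and 4.88 FPKM. SMAD2 over SMAD3 was 2.01 ± 0.30 on the log2 scale, a ratio of 4.02, and was largest in S3, where SMAD3 was lowest.

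The receptor SMADs of the BMP branch were closer together. SMAD9 stood at 19.5, 17.5 and 28.7 FPKM across S1, S2 and S3, SMAD1 at 20.9, 18.7 and 20.9 FPKM and SMAD5 at 14.9, 14.4 and 16.6 FPKM. SMAD9 thus ranked under SMAD1 in S1 and S2 and above it in S3, and their difference, 0.09 ± 0.32 on the log2 scale, was within its spread. SMAD5 was lower than SMAD1 in 3 of 3 libraries, at -0.40 ± 0.08. The sum of SMAD1, SMAD5 and SMAD9 was 1.64, 1.59 and 2.19 times that of SMAD2 and SMAD3 in S1, S2 and S3. For the type I receptors, ACVR1, BMPR1A and BMPR1B together stood at 1.33, 1.37 and 1.29 times ACVR1B, ACVR1C and TGFBR1. These sums were chosen after the values were seen.

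The restraining arm was uneven. SMAD6, which acts mainly against BMP signals, stood at 26.8, 23.6 and 24.3 FPKM, and SMAD7, which blocks both branches, at 4.79, 4.18 and 4.04 FPKM. SMAD7 over SMAD6 was -2.50 ± 0.05 on the log2 scale, which gave it the smallest SD of the 21 ratios computed. SMURF2 was the second highest of the 69 genes at 48.2, 45.8 and 45.2 FPKM, whereas SMURF1 stood at 2.83, 2.59 and 3.17 FPKM. Both are ubiquitin ligases for SMADs and type I receptors, and SMURF2 over SMURF1 was 3.98 ± 0.16, a ratio of 15.7.

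**Figure D3:**
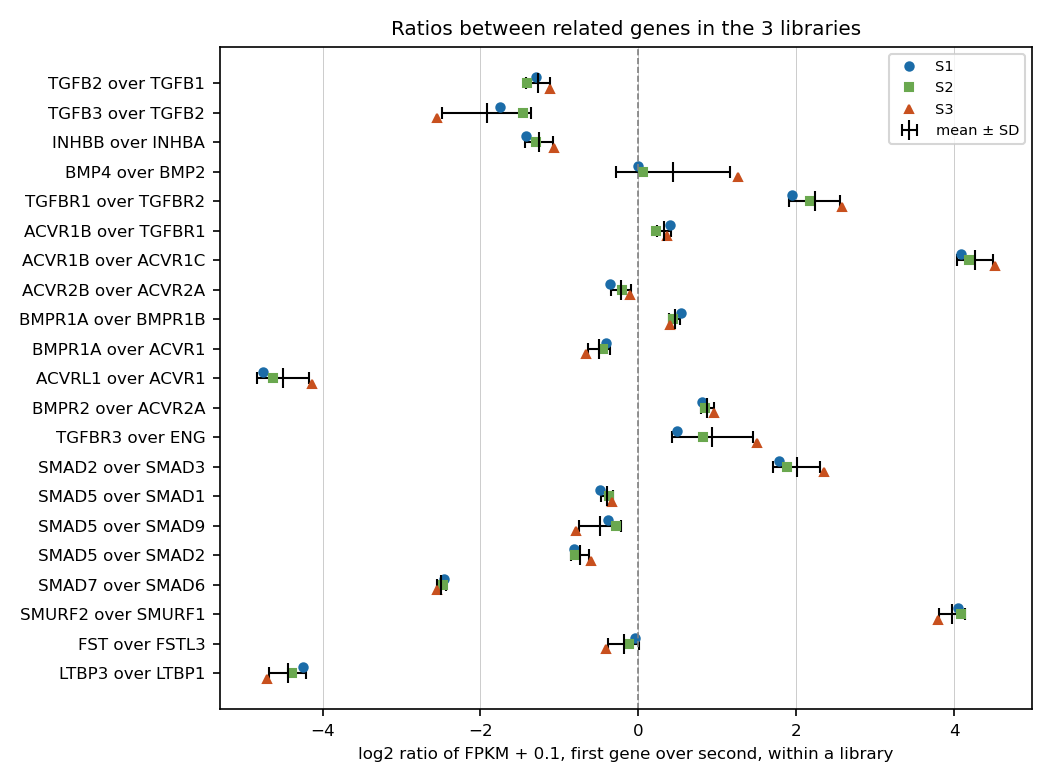
Log2 ratio of FPKM + 0.1 between the genes of 21 related pairs within each library; symbols are the 3 libraries and bars are the mean ± SD. All pairs but BMP4 over BMP2 keep 1 sign in the 3 libraries, and SMAD7 over SMAD6 has the narrowest bar, at -2.50 ± 0.05.

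Of the 21 ratios between related genes, 8 favoured the first gene and 12 the second in 3 of 3 libraries, and BMP4 over BMP2 was mixed. With 3 libraries the exact sign-flip permutation test, two-sided, cannot give a p under 0.25, and the adjusted p was 0.263 for each of the 20. The sizes and SDs of these ratios, not the p-values, carry the description. They come from within a library, so the scaling of a library hardly touches them.

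Extracellular inhibitors fell into a high and a low set. FSTL1, a secreted glycoprotein of the follistatin family, stood at 17.8, 16.7 and 14.7 FPKM across S1, S2 and S3. FSTL3 stood at 8.70, 7.91 and 5.19 FPKM and FST, or follistatin, at 8.47, 7.31 and 3.89 FPKM. Both bind activins and keep them from their receptors, both were lowest in S3, and their ratio of -0.19 ± 0.20 on the log2 scale, FST over FSTL3, was within its spread. The BMP antagonists CHRDL1 and CHRD, chordin, lay above the level at 1.57 ± 0.107 and 1.53 ± 0.288 FPKM. NOG, or noggin, GREM1, CHRDL2 and FSTL4 lay below it, with means from 0.336 to 0.449 FPKM, and FSTL5 was not told apart from it at 0.925 ± 0.00648 FPKM. NOG, GREM1 and FSTL5 lay above it, at 0.24, 0.24 and 0.94, once mitochondrial and ribosomal protein genes were taken out, and CHRDL2 and FSTL4 were then not told apart from it.

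Of the latent TGF-beta binding proteins, some of which anchor the latent complex in the matrix, LTBP1 was the only one above 1 FPKM, at 9.74, 9.48 and 9.26 FPKM. LTBP4, at 1.31, 0.727 and 0.744 FPKM, could not be separated from the level, but lay below it without S1, at a log2 difference of -0.20. LTBP2 and LTBP3 lay below, at 0.691 ± 0.130 and 0.346 ± 0.0817 FPKM. Rescaling to 1000000 left LTBP2 not told apart from it, at a log2 difference of -0.13. Without mitochondrial and ribosomal protein genes LTBP2 and LTBP4 lay above it, at 0.63 and 0.90, and LTBP3 was not told apart from it. LTBP3 over LTBP1 was -4.44 ± 0.24 on the log2 scale. Of the genes placed in none of the roles, BMP1, a protease that cleaves procollagen and chordin, averaged 9.63 ± 1.02 FPKM. BMP2K, a kinase, averaged 10.2 ± 0.641 FPKM and TGFB1I1, a focal adhesion protein, 3.06 ± 1.84 FPKM.

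Some of the 69 genes lie next to each other on a chromosome, and their levels were set side by side. No threshold for a like level was set, and how far neighbours differ over all genes was not computed. Gene order was read from the RefSeq table of the Sscrofa11.1 assembly, in which 5 pairs of the 69 were consecutive protein-coding genes. ACVRL1 and ACVR1B averaged 0.702 and 16.1 FPKM, ACVR1C and ACVR1 0.753 and 17.8 FPKM, and SMAD6 and SMAD3 24.9 and 6.39 FPKM. SMAD3, the lower of its pair, was still above the median mean of all genes tested, 3.93 FPKM. Of the remaining pairs, GDF2 and GDF10 had close means, while INHBC was near 0 and INHBE was listed at 0, as given above.

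The genes that differed between libraries included activin subunits, activin inhibitors and GDF15. For the 43 of the 69 genes that averaged 1 FPKM or more, each library was set against the mean of the other two. In S3, 8 genes were at least 1.5-fold lower, 18.6% of the 43, against 4.68% of the 12340 genes of such a mean, and 2 were at least 1.5-fold higher, 4.65%, against 2.29%. The genes lower in S3 were TGFB1I1, INHBA, FST, TGFB3, INHBB, BMP2, FSTL3 and TGFBR2, with log2 ratios from -1.75 to -0.61. TGFB1I1, the lowest at -1.75, is a focal adhesion protein placed in none of the roles. Those higher in S3 were GDF15, at 1.74, and SMAD9, at 0.63. SMAD3, at -0.54, and BMP4, at 0.55, did not quite reach the 1.5-fold line. The 43 genes had a median of -0.09, against 0.06 over all 12340. The replicates belong to 1 group, so this is a description with no test, and the 1.5-fold line was chosen after the values were seen.

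In S1 the 1.5-fold line was passed by 3 genes upward, 6.98% against 2.03% of all such genes, and by 1 downward, 2.33% against 0.592%. In S2 none was higher, against 0.389%, and 1 was lower, 2.33% against 1.02%. The genes higher in S1 were TGFB1I1, INHBA and FST, which were lowest in S3, and the gene lower in S1 and in S2 was GDF15. Receptors and SMADs were steadier than ligands: the median coefficient of variation was 6.62% for 11 receptors and co-receptors and 7.05% for 10 SMADs and SMURFs, against 14.3% for 13 ligands and 18.8% for 5 extracellular inhibitors. It was 9.34% over the 12340 genes. These medians were not tested. The roles also differed in level, as given above, and the part of level in these spreads was not tested.

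The number lower in S3 depended on scaling. After each library was rescaled to a sum of 1000000, the genes lower in S3 were 5 of 46, TGFB1I1, INHBA, FST, TGFB3 and INHBB, or 10.9%, against 3.29% of all genes of such a mean. Another 5 of the 46 were higher, GDF15, BMP6, SMAD9, BMP4 and TGFBR3, or 10.9%, against 5.45%. That rescaling moved the median log2 ratio of S3 over all such genes to 0.19, where it was 0.06 in the values as deposited. Without mitochondrial and ribosomal protein genes, 12 of 57 genes were lower, or 21.1%, against 7.9% of all such genes. There 2, GDF15 and BMP6, were higher, or 3.51%, against 2.43%, and the median over all genes was -0.03. The log2 ratio of INHBA was -1.11, -0.98 and -1.20 under the deposited, the rescaled and the reduced values, and that of SMAD9 was 0.63, 0.76 and 0.56.

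**Figure D4:**
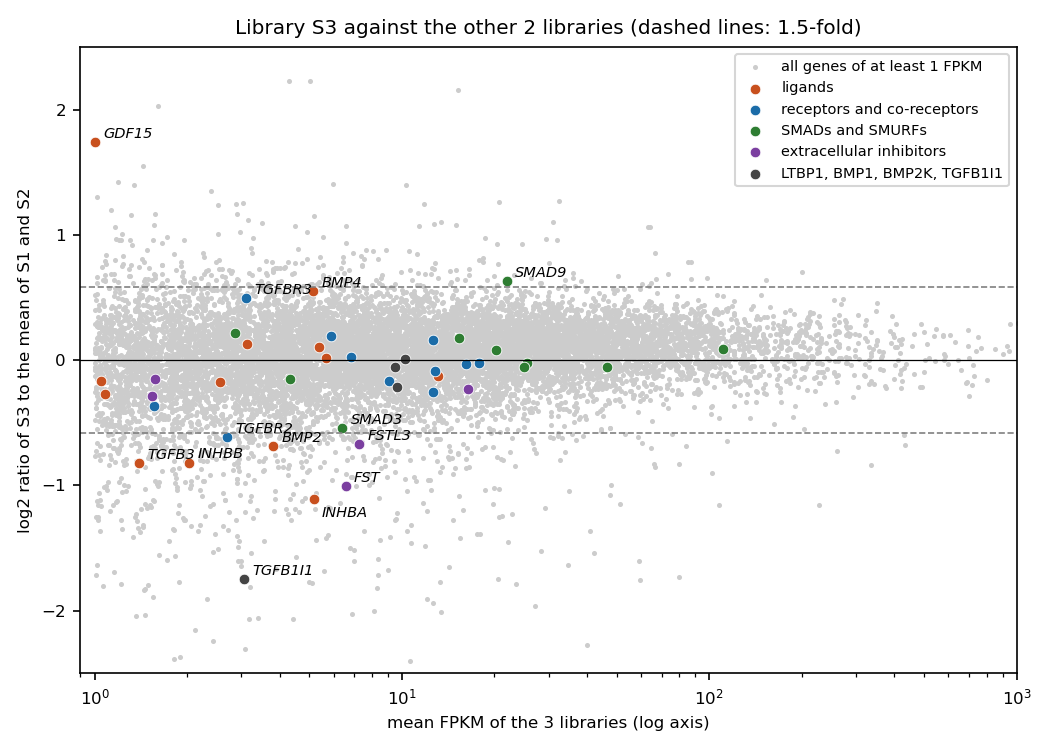
Log2 ratio of S3 to the mean of S1 and S2, with 0.1 added to each FPKM, against the mean FPKM of the 3 libraries on a log axis; coloured points are the 43 pathway genes of at least 1 FPKM and grey points all 12340 genes of such a mean, of which 38 fall outside the axes. TGFB1I1, INHBA and FST lie lowest among the coloured points, at -1.75, -1.11 and -1.003, and GDF15 highest at 1.74.

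Summed markers of Sertoli and Leydig cells were lowest in S3, as INHBA and FST were. The 10 Sertoli markers summed to 814, 690 and 502 FPKM in S1, S2 and S3. CLU alone stood at 325, 234 and 125 FPKM, a large part of that fall. Of the 7 markers that averaged 1 FPKM or more, 6 were lowest in S3, against 4084 of the 12340 genes of such a mean. Of the same 7, 4 were at least 1.5-fold lower there, against 4.68% of the 12340. The highest of the list, BEX1, stood at 272, 268 and 248 FPKM, and WT1, the exception, was lowest in S2. After rescaling to 1000000, 5 of the 7 were lowest in S3, and without mitochondrial and ribosomal protein genes 7 were. No Sertoli marker was at 0, but DHH was at most 0.0437 FPKM and AMH stood at 0.640, 0.371 and 0.120 FPKM. The 5 measured Leydig markers summed to 15.5, 12.4 and 4.66 FPKM, with CYP11A1 the highest at 12.01, 9.75 and 2.64 FPKM and LHCGR listed at 0 in S1 and S3. The 8 peritubular and fibroblast markers summed to 108, 82.5 and 73.0 FPKM, but without TAGLN the other 7 summed to 71.1, 58.1 and 64.1 FPKM, lowest in S2. As deposited 4 of these 8 markers were lowest in S3, and after rescaling to 1000000 1 of the 8 was lowest in S3. Without mitochondrial and ribosomal protein genes 5 of the 8 were. The sum of all 8 was lowest in S3 under each scaling. The 6 endothelial markers summed to 20.7, 19.6 and 16.2 FPKM and the 7 leukocyte ones to 23.5, 19.5 and 18.3 FPKM. The 8 markers of undifferentiated spermatogonia went the other way, with 299, 288 and 392 FPKM. NANOS3 alone stood at 50.0, 43.7 and 98.1 FPKM, a large part of that rise. Of the 8, 7 were highest in S3, against 6175 of the 12340 genes. The 5 germ cell markers also went the other way, with 823, 891 and 941 FPKM. Without mitochondrial and ribosomal protein genes the germ cell sum was highest in S2, at 2838, against 2494 in S1 and 2775 in S3. The leukocyte sum was lowest in S2 after rescaling to 1000000, at 22.8, against 27.3 in S1 and 23.5 in S3. INHA is itself one of the Sertoli markers, DCN one of the peritubular ones and ID4 one of the spermatogonial ones. The part of these cells in the levels of INHBA, INHBB, FST, FSTL3 or TGFB1I1 was not tested.

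**Figure D5:**
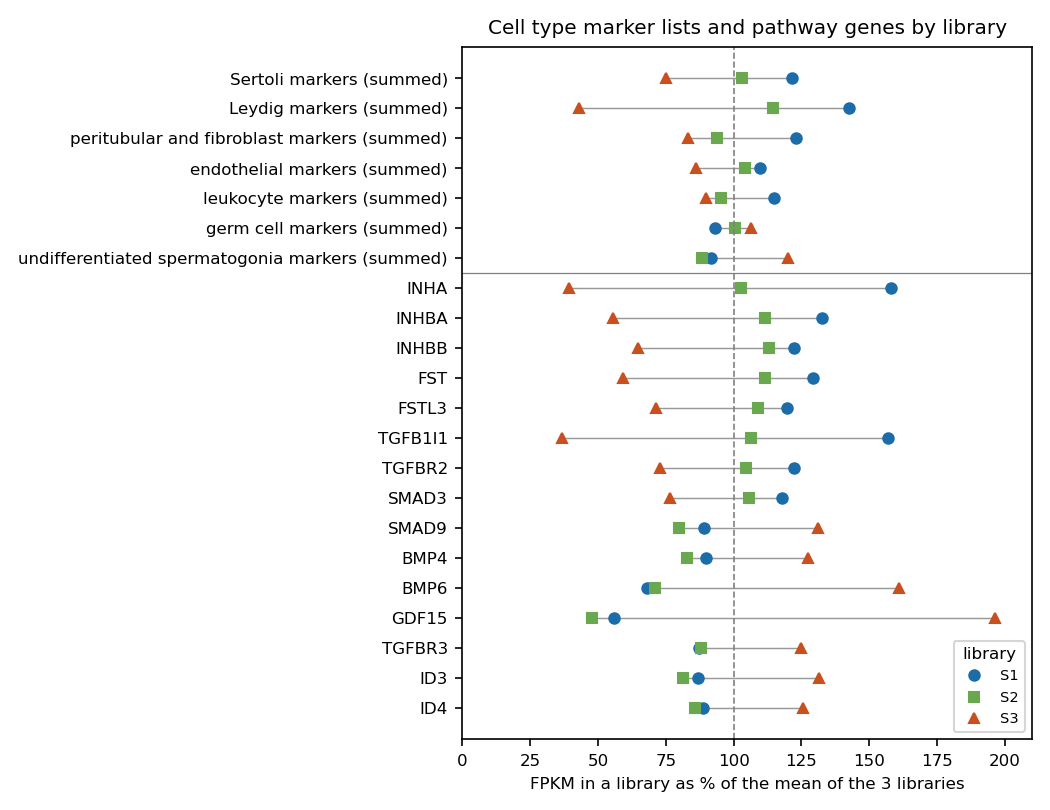
FPKM in each library as a percentage of the mean of the 3 libraries, for summed cell type marker lists (above the line) and for single genes (below it). Symbols are libraries. TGFB1I1 is a focal adhesion protein that matches the pattern by name and was placed in none of the roles. Sertoli and Leydig sums, INHA, INHBA and FST are lowest in S3, at 502 FPKM for the Sertoli sum and 3.89 FPKM for FST, while the spermatogonial sum, SMAD9 and BMP6 are highest there, at 392 FPKM for the spermatogonial sum and 28.7 FPKM for SMAD9.

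The wider pathway was followed with 80 genes outside the name pattern, of which 77 were measured and CFC1, DAND5 and FKBP1A were not analysed here. Of the 77, 60 lay above 1 FPKM, 77.9% against 65.6% of all genes tested, 16 lay below, 20.8% against 28.5%, and ITGB8 was not told apart. Partners and regulators of SMADs made up much of this: 30 of 31 lay above the level, led by the ubiquitin ligase WWP1 at 81.2 ± 6.47 FPKM, STRAP, which binds TGF-beta receptors and SMAD7, at 77.0 ± 1.15 FPKM, and the acetyltransferase EP300 at 56.7 ± 2.09 FPKM. The exception was FOXH1, the nuclear partner of SMAD2 in nodal signalling, at 0.152 ± 0.0602 FPKM. Its level stood beside the low levels of NODAL and of the nodal co-receptor TDGF1, which was at 0.0332 and 0.0643 FPKM in S1 and S2 and listed at 0 in S3.

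Co-receptors outside the pattern were led by RGMA and RGMB, glycolipid-anchored BMP co-receptors, at 20.6 ± 2.01 and 17.7 ± 2.45 FPKM, and by the decoy receptor BAMBI at 4.52 ± 0.836 FPKM. All 3 were highest in S3, as were 6175 of the 12340 genes that averaged 1 FPKM or more. Among the other inhibitors 5 of 11 lay above the level, 45.5% against 65.6%, with the matrix proteoglycan DCN at 31.4 ± 3.20 FPKM, TWSG1, a chordin partner, at 18.4 ± 1.76 FPKM and CRIM1 at 6.53 ± 0.325 FPKM, and WFIKKN2 was the lowest at 0.0356 ± 0.0211 FPKM. Of 8 genes that process or activate ligands 6 lay above, 75% against 65.6%, with THBS1, an activator of latent TGF-beta, at 45.2, 39.6 and 20.5 FPKM across S1, S2 and S3, the proprotein convertase FURIN at 18.8 ± 3.25 FPKM and ITGAV at 11.4 ± 0.836 FPKM. ITGB6, which pairs with ITGAV, was the lowest at 0.293 ± 0.00476 FPKM. Of the ligand subunits INHA lay above the level and AMH and MSTN lay below it, MSTN at 0.185 ± 0.0143 FPKM.

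Of 19 known target genes 15 lay above the level, 78.9%, against 65.6% of all genes tested. Among the highest were KLF10, an early TGF-beta response gene, at 165 ± 7.51 FPKM, and CDKN1A, an inhibitor of the cell cycle, at 54.9, 47.4 and 67.8 FPKM across S1, S2 and S3. MSX1 was the lowest at 0.167 ± 0.0379 FPKM. The ID genes, which are classic targets of BMP receptor SMADs, were each highest in S3. So were 6175 of the 12340 genes that averaged 1 FPKM or more. Of the 15 target genes of such a mean, 8 were highest in S3 and 5 were lowest there. ID3 stood at 29.4, 27.6 and 44.6 FPKM, ID4 at 20.1, 19.5 and 28.4 FPKM, ID2 at 20.0, 17.8 and 23.0 FPKM and ID1 at 4.13, 3.51 and 4.77 FPKM. THBS1 was lowest in S3, as TGFB3, TGFBR2 and SMAD3 were, and as were 4084 of the 12340 genes. Under both rescalings these named genes stayed lowest in S3 and the ID genes highest there. Other genes of the TGF-beta branch differed. TGFB2 and SMAD2 were lowest in S2 as deposited. TGFB1 and TGFBR1 were lowest in S3 as deposited, but not under both rescalings. With 3 libraries no correlation between these levels was computed.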

How the data were processed

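RNA of sorted SSEA4-positive spermatogonia was measured in 3 libraries. Per the labels' protocols, rRNA-depleted directional libraries were read as 150 bp pairs, cleaned by cutadapt 1.9.3, mapped by HISAT2 2.0.4 and quantified by Cuffdiff on Ensembl genes. The authors deposited FPKM values, per the labels' protocols, although the table's name says TPM; the sums under 1000000 do not settle this. Ratios between genes of a library are the same in either unit, while the level of 1 FPKM is not. The labels name susScr3 and the submitters' processing notes also Sscrofa11.1, so no coordinates are printed. Column names could not be matched to single samples, so the libraries form 1 group. Whether they stem from different animals is not stated in the labels, so the p-values cover the spread of these 3 libraries alone, and that spread may be technical.

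Of 18730 rows, 17949 had a value above 0 after values under 1e-06, in 170 genes, were set to 0. Each gene's log2(FPKM + 1) was tested against 1 FPKM in limma 3.58.1 (R 4.3.3; intercept only, trend, two-sided, Benjamini-Hochberg over all 17949 genes, threshold 0.05). Adding 1 understates differences of low genes. Ratios between genes and between libraries used a pseudocount of 0.1. A pair of genes was said not to differ beyond their spread when the mean of their log2 ratio was no larger than its SD. The scripts were tested on simulated data. Among 1105 genes above 0 and under 0.15 FPKM in every library, at most 2 had the same S1 to S2 ratio (4 decimals), so no whole reads were recovered and depth is unknown. Any of the 69 rows could be named. A few genes that these rules would name are not reported here, but they stay in the counts. For other pathway genes the 3 highest and the lowest of each class, INHA, AMH and ID1 to ID4 were to be named; ITGB8 and single marker genes other than the highest of a list or those at 0 were added after the values were seen. List genes took the table's symbol, or the Ensembl reference symbol where the table gave none. DAZL, HSD3B1 and CLDN5 had no matching row, and VWF was left out because its 2 symbols differ. Alternatives were another pseudocount, a filter on low values, a level of 5 FPKM, rescaling to 1000000, removal of 13 mitochondrial and 62 ribosomal protein genes, and each library left out. The rescaled marker sums and the peritubular sum without TAGLN were added after the values were seen. The 69 genes, the lists and the tests were chosen with earlier results of these data known.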

Additional observations from a re-analysis of the deposited data

How the results depend on the processing

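No paired analysis was possible because the libraries belong to a single group. The counts above and below 1 FPKM, for the 69 genes, each role and the pathway genes, kept within 1.5 times under a pseudocount of 0.1, and no ratio between related genes changed sign under a pseudocount of 1, after rescaling or without any 1 library. A level of 5 FPKM left 20 of the 69 genes above and 38 below, with 1 ligand, 7 receptors and 2 inhibitors above and 19 ligands, 7 receptors, 8 inhibitors and 1 of the SMADs and SMURFs below; over all genes 7632 lay above and 9130 below. A required mean of 0.5 FPKM or more, which leaves fewer low genes, left 4 of the 69 below, with 0 ligands and 0 inhibitors, 2 of the other pathway genes and 798 of all genes. With mitochondrial and ribosomal protein genes removed, which rescales the rest upwards, 15 ligands and 8 inhibitors lay above, and 9 of the 69, 7 ligands, 1 receptor, 1 inhibitor and 2924 of all genes lay below. Receptors below the level numbered 2 after rescaling to 1000000 and between 2 and 3 when 1 library was left out, against 4 with all; the low of 2 came without S2, where ACVR1C and ACVRL1 were lost. The counts of genes past 1.5-fold were, after rescaling, 2 lower in S1 (1.12% of all genes), 2 lower in S2 (1.72%), 5 lower in S3 (3.29%) and 5 higher in S3 (5.45%), of 46, and with the removal 2 of 57 lower in S1 (1.61%). Log2 differences that changed sign at 5 FPKM, because the level was moved past the gene, were INHBA at -0.024, BMP2 at -0.34, BMP7 at -0.54, GDF9 at -0.76, INHBB at -1.01, TGFB3 at -1.35, GDF2 at -1.53, GDF10 at -1.55, TGFBR2 at -0.71, TGFBR3 at -0.56, ENG at -1.23, SMAD7 at -0.17, SMURF1 at -0.64, CHRDL1 at -1.22, CHRD at -1.25, TGFB1I1 at -0.68, INHA at -0.013, BAMBI at -0.13, NBL1 at -0.29, BMPER at -0.61, PCSK5 at -0.72, PCSK6 at -0.045, ITGB8 at -1.38, MMP14 at -1.32, ZNF423 at -0.97, ID1 at -0.23, SNAI1 at -0.15 and ATOH8 at -1.20. Those that changed sign with the removal were GDF15 at 0.85, BMP6 at 0.88, BMP3 at 0.30, GDF11 at 0.080, ACVR1C at 0.71, ACVRL1 at 0.64, AMHR2 at 0.43, FSTL5 at 0.94, GREM1 at 0.24, NOG at 0.24, CHRDL2 at 0.20, FSTL4 at 0.019, LTBP4 at 0.90, LTBP2 at 0.63, LTBP3 at 0.035, AMH at 0.039, SNAI2 at 0.013, MSX2 at 0.50 and CDKN2B at 0.52. What depth does to low values was not tested, as the table holds no counts.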
